A study of Mus musculus with 6 samples.

Results

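Oxidative phosphorylation subunits are the proteins of the respiratory chain and the ATP synthase, and their mRNAs were compared here between RNA on the ribosomes of serotonin neurons and the RNA left behind in the same lysates. Members were the nuclear genes whose symbol in the array's annotation follows the naming of a subunit of complexes I to V or of cytochrome c, taken only from probe sets with a single gene symbol. The rule uses names and no measured values. It found 83 genes, read by 169 probe sets, of 18194 genes and 45101 probe sets in all. Of the 83, 33 belong to complex I, 4 to complex II, 9 to complex III (cytochrome c1 included), 17 to complex IV and 17 to complex V. The remaining 3 are Cycs (cytochrome c) and the pair Ndufa4 and Ndufa4l2, which are given apart because NDUFA4, although named for complex I, is now held to be a complex IV subunit.

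The study used translating ribosome affinity purification (TRAP), which pulls tagged ribosomes with their bound mRNA out of a tissue lysate. All samples came from adult male and female mice aged 6 to 12 weeks, on a mixed background of FVB and c57/bl6j, that carried the Slc6a4 JD60 transgene, a bacterial artificial chromosome of the serotonin transporter gene. The tag is therefore limited to cells that use the regulatory sequence of that gene. Midbrain and brainstem without cerebellum of 5 mice were pooled for each sample. The IP group was 3 samples of RNA bound to the tagged ribosomes, and the unbound group was 3 samples of the RNA that stayed in the lysate, which is dominated by other cells. Both groups carry the transgene, and there was no group without it. IP and unbound RNA differ both in the cells they come from and in being bound to ribosomes, and these cannot be told apart. In bulk RNA, fewer cells of a type and less RNA per cell cannot be told apart either.

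The respiratory chain moves electrons from NADH (through complex I) and succinate (through complex II) to ubiquinone, on to complex III, cytochrome c and complex IV, where oxygen is reduced. Complexes I, III and IV pump protons across the inner mitochondrial membrane, and complex V lets them back to make ATP. A few subunits of every complex but II are encoded in mitochondrial DNA, and all others, the members here, are nuclear genes. Neurons depend on this pathway for most of the ATP that ion pumping and synaptic transmission use.

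Values are log2 expression, on which 1 unit is a factor of 2, and every gene is read by its brightest probe set. The groups had been normalised separately by the authors, so IP values were shifted by -0.23 to match the unbound arrays over 18 biotinylated hybridisation control probe sets. Testing was limited to genes with a log2 value of 5 or more, taken here as the detection limit, on 3 or more of the 6 arrays, and a gene is called higher or lower in IP where limma's adjusted p was under 0.05 and the change was at least 2-fold. Of the 83 members, 75 were tested. The 8 others were dim on all arrays: Ndufb4, Ndufa4l2 and 6 isoforms of complex IV.

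Facts of the whole series bear on how the members are read. Over all probe sets, pairs of IP arrays had a Pearson's r of 0.996 to 0.999 and pairs of unbound arrays 0.994 to 0.997, while IP and unbound arrays paired at 0.924 to 0.932. Precision is limited by the 3 arrays of each group. Of 8 serotonin neuron markers tested, 8 were higher in IP (Slc6a4 35.5-fold and Tph2 56.1-fold), while 10 of 10 astrocyte, 9 of 9 oligodendrocyte, 4 of 4 endothelial and 8 of 8 markers of other transmitter neurons were lower, as were 5 of 6 microglial ones. The 4 tested endothelial markers were under the limit on all IP arrays, as were 5 astrocyte and 2 oligodendrocyte ones and, of the rest, Cx3cr1, C1qa, Tyrobp, Slc6a2 and Th, so for these the filter fixed the direction. The serotonin neuron marker Lmx1b and the microglial Aif1, both called higher, were under the limit on all unbound arrays. The filter fixed their direction as well. The log2 of the summed level of the 10 astrocyte markers ran from 13.12 to 13.45 in IP samples and from 15.01 to 15.39 in unbound ones, and that of the 9 oligodendrocyte markers 14.06 to 14.62 and 16.24 to 16.49, with Sox9, Acsbg1, Fgfr3, Aldh1l1, Slc1a3, Olig2 and Myrf below detection on all IP arrays. Glial markers other than Aif1 thus went the opposite way to the members called higher, and their part in the members' values was not tested. Among 10 pan-neuronal genes 2 were higher and 2 lower. The same value on all 3 IP arrays was found for 2124 of the 10582 tested genes, 7 of them members (Ndufa2, Ndufa6, Ndufb3, Ndufa4, Atp5e, Atp5md and Cox7c), so the spread between IP samples of these genes is unknown.

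Under the biotin scaling most subunit mRNAs read higher in IP than in unbound RNA, while most tested mRNAs read lower. Of the 75 tested members, 20 were called higher in IP, 2 were called lower and 53 were not called. Over all 10582 tested genes 10.4% were called higher and 41.1% lower, against 26.7% and 2.67% of the tested members. The median log2 change was 0.44 over tested members and -0.65 over all tested genes, a difference of 1.09. By adjusted p alone 49 members were higher and 7 lower, where 22% and 56.9% of all tested genes were. All 3 IP arrays lay above all 3 unbound arrays for 54 members and below them for 7, and the arrays overlapped for 14. Over all tested genes the first happened in 23.9% and the second in 59.1%. The plot of changes by gene shows the 20 called higher spread over complexes I, III, IV and V, with none in complex II.

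**Figure D1:**
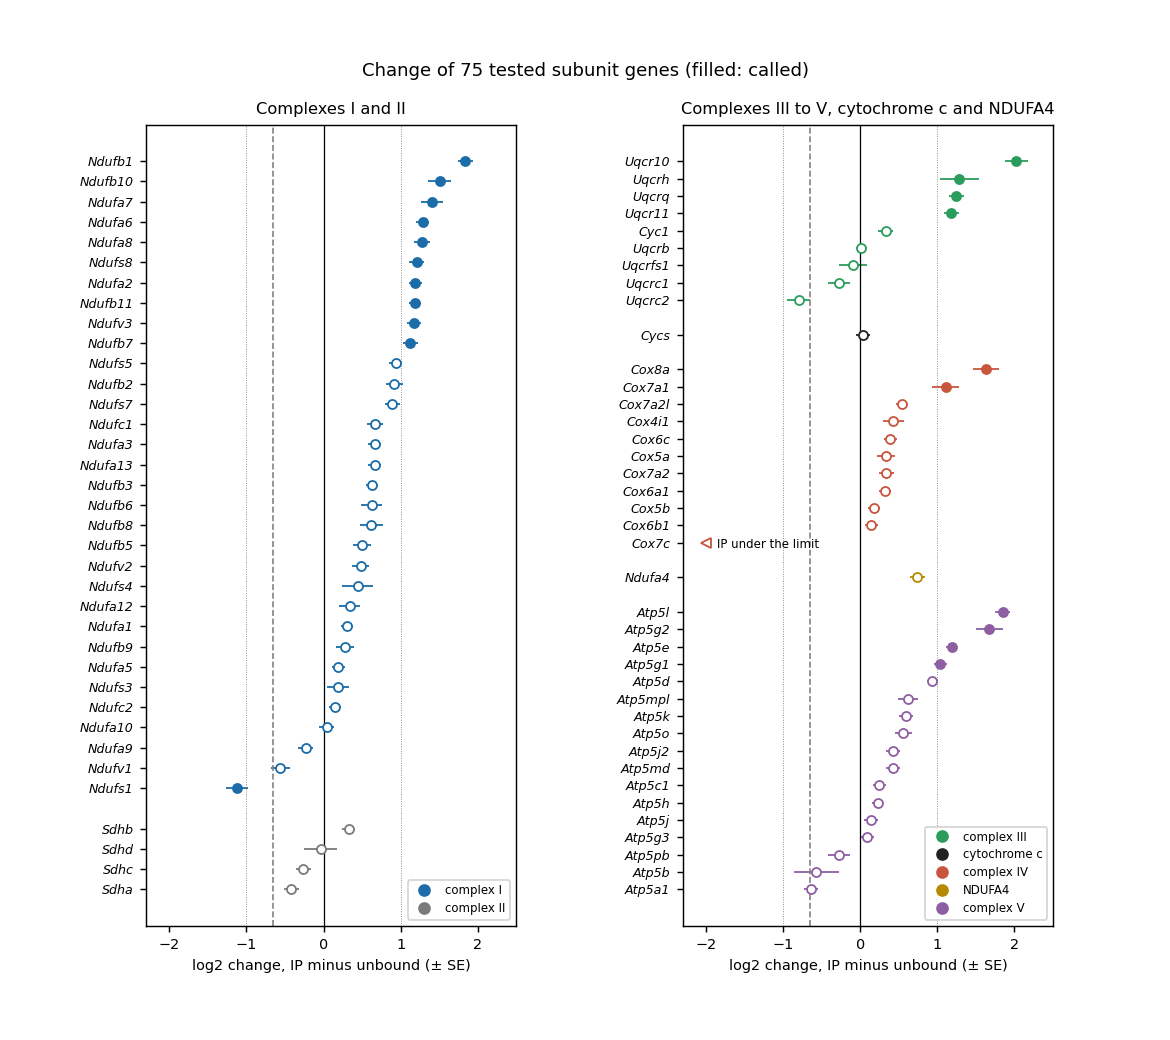
Log2 change (IP minus unbound, x axis) of each of the 75 tested subunit genes under the biotin scaling, grouped by complex, with its standard error as a bar; filled points were called, dotted lines mark a 2-fold change and the dashed line the median of all tested genes, -0.65. Changes run from -1.13 (Ndufs1) to 2.02 (Uqcr10), with Cox7c drawn as a triangle at the edge because its IP value lay under the detection limit, and every positive value turns negative if the arrays are scaled to the poly-A controls.

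The direction of single members depends on how the separately normalised groups are put on one scale. Without scaling 24 members were higher and 1 lower, with arrays centred on the median of expressed probe sets 50 and 1, and with the median of all probe sets 62 and 1. Quantile normalisation over all 6 arrays gave 15 higher and 3 lower, and 14 of the 20 called above stayed called. Scaling by the poly-A controls added to the RNA, which shifts IP values by -2.91, gave 0 higher and 72 lower. Under it the changes of all 62 tested members with a positive value turn negative, and no gene given below as called higher keeps that call. The median of tested members lay above that of all tested genes by 1.05 to 1.14 under the scalings that shift all values of an array alike, which by construction hardly move this difference. Quantile normalisation, which can move it, gave 0.16. That scaling moved the median of all tested genes to 0.04 and that of the members to 0.20. The plot of medians under 6 scalings shows the complexes moving together, with complex I on top and all 5 close to the median of all genes after quantile normalisation.

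**Figure D2:**
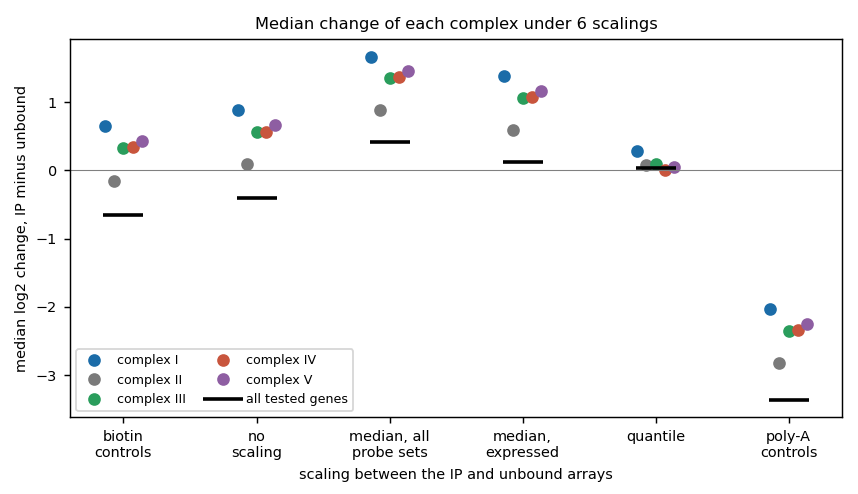
Median log2 change (IP minus unbound, y axis) of the tested members of each complex (coloured points) and of all tested genes (black bars) under 6 ways of scaling the IP to the unbound arrays. Complex I runs from 1.67 with the median of all probe sets to -2.03 with the poly-A controls, and all complexes lie above the black bar except under quantile normalisation, where complex IV is at 0.00 and all tested genes at 0.04.

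Nuclear respiratory factor 1 (NRF1) is a transcription factor known for binding the promoters of many respiratory chain genes, so promoters were searched for its motif. RefSeq promoters (GRCm38.p6, 250 bases before to 50 after the start) were found for 67 of the 83 members, and the motif GCATGCGC was looked for on both strands. It occurred in 10 members (14.9%), against 6.26% of 8636 tested genes and 3.05% of all 27025 genes with a promoter. Of members called higher 5 of 18 held it (27.8%), and of other tested members 5 of 45 (11.1%). Atp5k and Cox6a1, neither called, hold it before the start and are not printed. In Uqcr11, called higher, the match runs across the start, and in Uqcrc1, not called, it lies after it. These 6 stretches from before the start show the match in capitals (longer where matches on both strands overlap). They come from 4 members called higher and from 2 that were not called, Sdhb and Cycs.
Ndufa6, chr15:82354321-82354420, minus strand: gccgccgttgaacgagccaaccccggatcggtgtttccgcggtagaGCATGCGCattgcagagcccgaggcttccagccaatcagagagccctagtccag
Ndufa8, chr2:36049339-36049392, minus strand: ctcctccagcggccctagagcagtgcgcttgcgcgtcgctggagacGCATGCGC
Atp5l, chr9:44920929-44920992, minus strand: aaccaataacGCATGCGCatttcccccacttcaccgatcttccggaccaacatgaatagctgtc
Atp5g2, chr15:102671048-102671135, minus strand: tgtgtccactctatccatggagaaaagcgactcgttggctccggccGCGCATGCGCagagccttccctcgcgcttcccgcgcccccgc
Sdhb, chr4:140961171-140961270, plus strand: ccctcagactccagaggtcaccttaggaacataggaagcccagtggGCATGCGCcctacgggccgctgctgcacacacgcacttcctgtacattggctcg
Cycs, chr6:50566576-50566675, minus strand: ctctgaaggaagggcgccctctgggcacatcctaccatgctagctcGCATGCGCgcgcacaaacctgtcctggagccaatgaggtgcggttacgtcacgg

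In the window of Ndufa8 the match ends at the base before the start and in that of Atp5l it begins 240 bases before it, so the matches share letters and not a position. Other motifs were searched in the same windows, both strands, and no motif lies inside another except the shorter form for ERR in the longer one. The YY1 motif AAGATGGC occurred in 13.4% of members and 5.49% of tested genes, in 0 of 18 members called higher and in 20.0% of other tested members, among them Ndufs7, Ndufb8 and Atp5pb. The ETS motif CCGGAAG, read by GABPA, occurred in 25.4% and 20.0%, the CRE motif TGACGTCA in 5.97% and 3.71%, and the TATAAA box in 11.9% and 8.55%. The ERR motif TCAAGGTCA was in 2 members, Atp5g3 and Sdhd (2.99%), against 0.359% of tested genes, and its shorter form AAGGTCA in 11.9% against 3.67%. The SP1 motif GGGGCGGGG was less frequent among members (16.4%) than among tested genes (25.8%). In members called higher and in other tested members ETS occurred in 38.9% and 22.2%, CRE in 0% and 8.89%, and TATAAA in 16.7% and 6.67%. For SP1 these shares were 22.2% and 13.3%, for ERR 0% and 4.44%, and for its shorter form 11.1% in both. These shares are descriptions of the windows and were not tested.

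Complex I, the NADH dehydrogenase, has a matrix arm that carries the electrons and a membrane arm that pumps protons. Of its 33 genes 32 were tested, 10 were higher, 1 (Ndufs1) was lower and 21 were not called, with a median log2 change of 0.65. In the membrane arm 5 of 18 tested genes were higher and 0 lower, with all 18 changes positive and a median of 0.66. In the matrix arm 5 of 14 were higher and 1 lower, with a median of 0.46. The 6 tested core subunits, those shared with bacteria, gave 1 higher and 1 lower with a median of 0.33, and the 26 supernumerary ones 9 higher and 0 lower with a median of 0.66.

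Ndufb1, a small membrane arm subunit, had the highest change of complex I. Its log2 values were 7.96, 7.96 and 7.92 in IP and 6.24, 5.94 and 6.15 in unbound RNA. The groups lay 3.57-fold apart with no overlap (log2 change 1.84 ± 0.10 SE, limma adjusted p = 1.07e-05). Ndufb10, which faces the intermembrane space, had values of 14.03, 14.49 and 14.45 in IP and 12.70, 12.79 and 12.97 in unbound RNA, a change of 1.51 ± 0.15 (SE, limma adjusted p = 1.67e-04). IP replicate 1 was the lowest IP sample and still lay above every unbound one. Ndufa8 and Ndufb7, which also face that space, had 13.66, 13.66 and 13.67 in IP and 12.19, 12.47 and 12.50 in unbound RNA (Ndufa8, 2.42-fold) and 13.97, 14.22 and 14.18 in IP and 12.93, 13.06 and 13.01 in unbound RNA (Ndufb7, 2.18-fold). Ndufb11, encoded on the X chromosome, had 14.91, 15.02 and 14.97 in IP and 13.77, 13.72 and 13.85 in unbound RNA, a 2.28-fold difference. In these 3 the SD within a group was at most 0.17, and no IP sample overlapped an unbound one. Under quantile normalisation Ndufb7 (0.86) and Ndufb11 (0.80) were not called.

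Among matrix arm genes, Ndufa7 had 11.87, 12.10 and 11.90 in IP and 10.60, 10.28 and 10.77 in unbound RNA, a change of 1.41 ± 0.15 (SE, limma adjusted p = 1.98e-04). All 5 of its tested probe sets were called higher, at 1.41 to 2.64. Ndufa6, a LYR protein that anchors the acyl carrier protein, read 13.66 on all 3 IP arrays and 12.45, 12.27 and 12.41 in unbound RNA, a 2.43-fold difference. Ndufa2 likewise read 15.28 on all 3 IP arrays, against 14.12, 13.97 and 14.17 in unbound RNA (2.28-fold). Ndufv3, a small subunit at the tip of the arm beside the NADH site, had 14.35, 14.57 and 14.56 in IP and 13.40, 13.28 and 13.27 in unbound RNA (2.25-fold). The groups did not overlap for any of these 4 genes, though Ndufa2 and Ndufv3 were not called under quantile normalisation, both at 0.86. Ndufab1, the acyl carrier protein itself, falls outside the naming rule and was higher as well, by 1.15 (2.22-fold), though not under quantile normalisation, at 0.87, and its dimmest tested set read -3.42.

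The core subunits went different ways. Ndufs8, which carries a pair of iron-sulphur clusters near the ubiquinone site, had 13.96, 14.04 and 13.91 in IP and 12.87, 12.63 and 12.79 in unbound RNA, a change of 1.21 ± 0.09 (SE, limma adjusted p = 5.24e-05). It was not called under quantile normalisation (0.96), nor by any of its 4 other tested probe sets (0.38 to 0.74). Ndufs7, its neighbour with the last cluster before ubiquinone, had 14.53, 14.79 and 14.70 in IP and 13.68, 13.81 and 13.85 in unbound RNA, under the 2-fold limit at 0.89, while its second probe set was called higher at 1.07, as was the gene without scaling at 1.13. Ndufs1, the largest subunit, which holds the clusters next to the NADH site, had 10.18, 9.66 and 9.95 in IP and 11.05, 10.97 and 11.15 in unbound RNA. It was 2.18-fold lower in IP (log2 change -1.13 ± 0.15 SE, limma adjusted p = 5.46e-04), and every IP sample lay below every unbound one. That call was lost without scaling (-0.89), with quantile normalisation (-0.80), with both medians (-0.10 and -0.38) and without IP replicate 2 (-0.99), but the sign held. Ndufv1, which binds NADH and the flavin, had 12.37, 12.32 and 12.32 in IP and 13.14, 12.73 and 12.84 in unbound RNA. Its change was -0.56 ± 0.12 (SE, limma adjusted p = 0.00562), under 2-fold, and its other 2 probe sets read -0.85 and -1.12, the last of them called lower. Both medians turned the change of Ndufv1 positive (0.47 and 0.18). Ndufv2 (0.48) and Ndufs3 (0.19) were positive and not called, and the arrays of Ndufs3 overlapped.

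The 17 further complex I genes with no call ranged from 0.94 (Ndufs5) to -0.23 (Ndufa9). Ndufs5 and Ndufb2 (0.92) were called higher without scaling, at 1.17 and 1.15, and Ndufb2 also without IP replicate 1, at 1.02. Ndufa9, a matrix arm subunit that binds NADPH, had 12.70, 12.59 and 12.52 in IP and 12.86, 12.69 and 12.96 in unbound RNA, groups that overlapped. Ndufa10 lay at 0.04, with IP values of 11.94 to 12.05 inside the unbound range of 11.89 to 12.13. Ndufa5, Ndufa12, Ndufb9, Ndufc2 and Ndufa1, all bright, had log2 differences of 0.15 to 0.34 that turned negative under quantile normalisation.

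**Figure D3:**
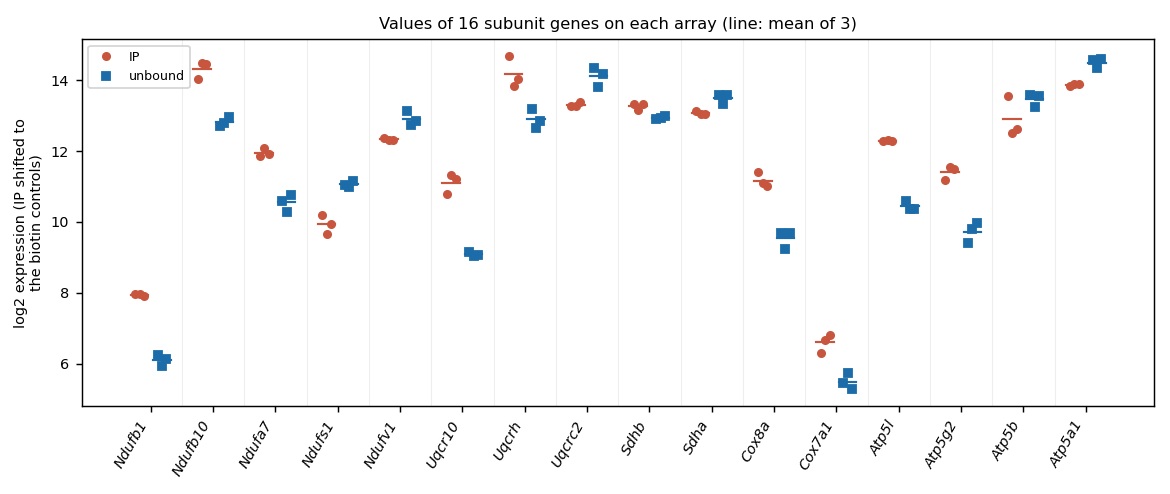
Log2 expression (y axis, IP shifted to the biotin controls) of 16 subunit genes on each of the 3 IP arrays (circles) and 3 unbound arrays (squares), with lines at the group means. IP and unbound arrays are separate for 15 of the 16 genes and overlap for Atp5b, whose IP replicate 1 lies at 13.55 beside 12.50 and 12.63; Ndufs1, Ndufv1, Uqcrc2, Sdha and Atp5a1 lie lower in IP and the others but Atp5b higher, and the higher ones turn lower under the poly-A scaling.

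Complex II, succinate dehydrogenase, is the only member of the chain that also serves the citric acid cycle, and the only one with no mitochondrially encoded subunit. None of its 4 genes was called, and the median log2 change was -0.15, a sign that turned without scaling (0.09), with the medians (0.88 and 0.59) and with quantile normalisation (0.08). Sdha, the flavoprotein that oxidises succinate, had 13.12, 13.06 and 13.06 in IP and 13.58, 13.34 and 13.57 in unbound RNA, lower in every IP sample by a change of -0.42 ± 0.09 (SE, limma adjusted p = 0.00646). Sdhb, the iron-sulphur subunit, had 13.33, 13.15 and 13.33 in IP and 12.89, 12.94 and 12.99 in unbound RNA, higher in every IP sample at 0.33 ± 0.08 (SE, limma adjusted p = 0.0116). The catalytic pair thus had opposite signs under the biotin scaling, each by under 2-fold. With the medians of all and of expressed probe sets both were positive, Sdha at 0.61 and 0.32 and Sdhb at 1.36 and 1.07. With the poly-A controls both were negative, at -3.1 and -2.35. Sdhc, a membrane anchor, had 10.70, 10.59 and 10.48 in IP and 10.72, 10.92 and 10.91 in unbound RNA (log2 change -0.26 ± 0.10 SE, limma adjusted p = 0.0484). Sdhd, the other anchor, had 11.08, 10.36 and 10.33 in IP and 10.72, 10.57 and 10.60 in unbound RNA, and IP replicate 1 alone lay above the unbound samples. Its change was -0.04 and its second probe set read 0.92.

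Complex III passes electrons from ubiquinol to cytochrome c. Of its 9 tested genes 4 were higher, 0 lower and 5 not called, with a median of 0.33, and the 4 were all small subunits. Uqcr10 had 10.79, 11.33 and 11.21 in IP and 9.15, 9.05 and 9.06 in unbound RNA. At 4.07-fold (log2 change 2.03 ± 0.15 SE, limma adjusted p = 4.56e-05) it had the largest increase of the 75 members, and its 2 other probe sets were called higher too, at 1.12 and 1.28. Uqcrh, the acidic hinge protein beside cytochrome c1, had 14.68, 13.84 and 14.03 in IP and 13.19, 12.66 and 12.84 in unbound RNA. Its samples spread most among the called members of this complex (SD 0.44 in IP, 0.27 unbound), yet did not overlap, and the change was 1.29 ± 0.25 (SE, limma adjusted p = 0.00368). Its other probe set read 0.79 and was not called. Uqcrq had 13.37, 13.18 and 13.08 in IP and 11.98, 11.91 and 12.01 in unbound RNA (2.37-fold), and Uqcr11 had 13.70, 13.89 and 13.93 in IP and 12.64, 12.60 and 12.73 in unbound RNA (2.27-fold). Uqcr11 missed the 2-fold limit under quantile normalisation, at 0.96.

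The catalytic and core proteins of complex III were not called, and neither was the small subunit Uqcrb. Cyc1, cytochrome c1, had 13.34, 13.58 and 13.49 in IP and 13.15, 13.03 and 13.24 in unbound RNA, a change of 0.33. Uqcrfs1, the Rieske iron-sulphur protein, read 12.31 to 12.32 in IP inside an unbound range of 12.06 to 12.78. Uqcrc2, a core protein related to mitochondrial processing peptidases, had 13.27, 13.27 and 13.37 in IP and 14.35, 13.80 and 14.17 in unbound RNA. Every IP sample lay below every unbound one, at -0.80 ± 0.15 (SE, limma adjusted p = 0.00308), and its second probe set read -0.50. Under quantile normalisation it was called lower at -1.08, and with the median of all probe sets it turned to 0.23. Uqcrc1, its partner, had 10.40, 10.19 and 10.13 in IP and 10.26, 10.59 and 10.69 in unbound RNA, groups that overlapped. Uqcrb, near the top of the scale, read 15.10 to 15.18 in both groups.

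Cycs, the mobile carrier between complexes III and IV, had 14.86, 14.86 and 14.81 in IP and 14.96, 14.70 and 14.76 in unbound RNA. The groups overlapped and the change was 0.04 ± 0.09 (SE, limma adjusted p = 0.717). Its other tested probe sets read 0.38, -0.14 and -2.41, the last from a dim set at 5.83 in IP and 8.25 in unbound RNA.

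Complex IV, cytochrome c oxidase, is built around catalytic subunits from mitochondrial DNA, and the nuclear members surround them, several as tissue isoforms. Of its 17 genes 11 were tested, 2 were higher, 1 was lower and 8 were not called, with a median of 0.34. Cox8a, the smallest subunit in its widespread isoform, had 11.40, 11.09 and 11.02 in IP and 9.69, 9.24 and 9.68 in unbound RNA, a 3.1-fold difference (log2 change 1.63 ± 0.17 SE, limma adjusted p = 2.03e-04), and its other tested probe set read 2.76. Cox7a1, the isoform known from heart and skeletal muscle, had 6.31, 6.68 and 6.81 in IP and 5.47, 5.73 and 5.28 in unbound RNA. It lay just above the detection limit in both groups and was called at 1.11 ± 0.18 (SE, limma adjusted p = 0.00144). That call was lost without IP replicate 3 (1.00), and the gene was not tested with the filter at log2 7. Cox7a2, the isoform of most tissues, was bright at 15.10, 15.28 and 15.20 in IP and 14.91, 14.72 and 14.95 in unbound RNA and not called (0.34). Cox7a2l, a related protein that joins complexes III and IV in supercomplexes, had 14.52, 14.51 and 14.59 in IP and 14.06, 13.89 and 14.05 in unbound RNA, also not called at 0.54.

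For the other complex IV subunits with isoforms no form but the widespread one passed the filter, and Cox7b itself was not analysed. Cox4i1, Cox6a1, Cox6b1 and Cox8a were tested, while Cox4i2, Cox6a2, Cox6b2, Cox7b2, Cox8b and Cox8c, known from lung, muscle or testis, stayed under the detection limit on all 6 arrays. The highest single value among the 6 was 4.54, for Cox8b in unbound replicate 1. Cox4i1 had 15.04, 15.40 and 15.39 in IP and 14.68, 14.89 and 14.98 in unbound RNA, with a change of 0.43. Cox6a1 had 15.49, 15.54 and 15.52 in IP and 15.28, 15.12 and 15.19 in unbound RNA by its brightest probe set, at 0.32, while its other set read 14.34 in IP and 12.76 in unbound RNA and was called higher at 1.58. Cox6b1 lay between 15.55 and 15.57 in IP and between 15.30 and 15.51 in unbound RNA (0.14). Cox5a, Cox5b and Cox6c had differences of 0.18 to 0.39, none past 2-fold.

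Cox7c was called lower, but this rests on weak probe sets. Both sets with its single symbol are dim, and the tested one read 2.04 on all 3 IP arrays and 7.60, 7.59 and 7.08 in unbound RNA. With IP under the detection limit the fold is a bound, at least 5.37-fold lower (limma, adjusted p = 1.09e-06), and the filter fixed its direction. Without any 1 of the unbound arrays the gene was not tested. Cox7b had no probe set named for it alone and was not analysed here. Without Cox7c 20 members were higher and 1 lower.

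Ndufa4 read 13.43 on all 3 IP arrays and 12.85, 12.54 and 12.67 in unbound RNA, a change of 0.74 ± 0.10 (SE, limma adjusted p = 6.35e-04) that stayed under 2-fold. Its paralogue Ndufa4l2, known as a hypoxia-responsive gene, lay at the floor in both groups, 1.99 in IP and 2.17 in unbound RNA.

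Complex V, the ATP synthase, joins a catalytic F1 head to a rotating c ring in the membrane, held by a peripheral stalk. All 17 genes were tested, 4 were higher, 0 lower and 13 not called, with a median of 0.43. The c ring had the highest median of its parts (1.04, 3 genes), followed by the other membrane subunits (0.59, 5 genes), the F1 head (0.25, 5 genes) and the peripheral stalk (0.18, 4 genes). These differences between parts were not tested. Atp5l, subunit g of the membrane part, which helps the enzyme form dimers, had 12.29, 12.32 and 12.28 in IP and 10.60, 10.36 and 10.38 in unbound RNA. IP samples hardly differed (SD 0.02) and lay 3.6-fold above the unbound mean (log2 change 1.85 ± 0.09 SE, limma adjusted p = 8.09e-06).

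The 3 genes of the c ring encode the same mature protein with different import sequences. Atp5g2 had 11.19, 11.54 and 11.49 in IP and 9.42, 9.79 and 9.98 in unbound RNA, a 3.2-fold difference (log2 change 1.68 ± 0.18 SE, limma adjusted p = 2.06e-04). Atp5g1 had 12.51, 12.58 and 12.51 in IP and 11.58, 11.41 and 11.48 in unbound RNA, 2.06-fold (log2 change 1.04 ± 0.08 SE, limma adjusted p = 4.82e-05), while Atp5g3 had 14.94, 15.004 and 14.98 in IP and 14.78, 14.88 and 14.98 in unbound RNA, at 0.09 ± 0.08 (SE, limma adjusted p = 0.325) with overlapping arrays. The differences between the 3 changes were not tested. Both calls rest on the brightest probe set. With the mean of a gene's probe sets Atp5g2 turned to -0.62 and Atp5g1 to -1.43, because those means include dim sets, one of Atp5g1 reading 3.37 in IP and 7.27 in unbound RNA (-3.90).

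In the F1 head the 2 smallest subunits stood highest. Atp5e, the epsilon subunit of the central stalk, read 12.91 on all 3 IP arrays against 11.73, 11.65 and 11.81 in unbound RNA (2.27-fold). Atp5d, the delta subunit beside it, had 13.66, 13.68 and 13.68 in IP and 12.70, 12.71 and 12.80 in unbound RNA, at 0.93 ± 0.07 (SE, limma adjusted p = 4.59e-05) just under 2-fold, and was called without scaling at 1.17. Atp5a1, the alpha subunit, had 13.82, 13.88 and 13.88 in IP and 14.57, 14.34 and 14.59 in unbound RNA, lower in every IP sample at -0.64 ± 0.09 (SE, limma adjusted p = 0.00102), and was called lower under quantile normalisation at -1.01 while both medians turned it positive (0.39 and 0.11). Atp5b, the catalytic beta subunit, had 13.55, 12.50 and 12.63 in IP and 13.59, 13.25 and 13.56 in unbound RNA. IP replicate 1 stood apart from the other IP samples and inside the unbound range, the SD in IP was 0.57, and the change of -0.57 ± 0.29 (SE, limma adjusted p = 0.116) was about the size of that spread. Atp5c1, the gamma shaft, lay at 0.25. In the peripheral stalk Atp5o (0.56), Atp5h (0.22), Atp5j (0.14) and Atp5pb (-0.28) were not called.

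Across the complexes, 13 of the 75 tested members had a negative value. They were Ndufs1, Ndufv1 and Ndufa9 of complex I, Sdha, Sdhc and Sdhd of complex II, Uqcrc1, Uqcrc2 and Uqcrfs1 of complex III, Cox7c of complex IV and Atp5a1, Atp5b and Atp5pb of complex V. Of the 13, Ndufs1 and Cox7c kept a negative value under every scaling, and the other 11 turned positive under at least 1 of them.

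The members were among the brightest genes of the arrays, and few of the brightest were called. Of the 75, 58 had a mean log2 value of 12 or more and 34 of 14 or more, close to the highest deposited values of 16.46 in IP and 15.86 to 15.90 in unbound RNA. At 14 or more 2 of 34 members (5.88%) were higher, against 7.03% of the 185 tested genes at that level, the members included. Between 13 and 14 8 of 18 members (44.4%) were higher, against 24.9% of 261 genes. At 12 or more the members had 22.4% higher and 0 lower with a median change of 0.43, and the 901 tested genes 17.8% higher and 11.4% lower with a median of 0.20. The distance between the medians, 1.09 over all levels, was thus smaller among bright genes. The part of saturation near the top of the scale in these values was not tested.

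**Figure D4:**
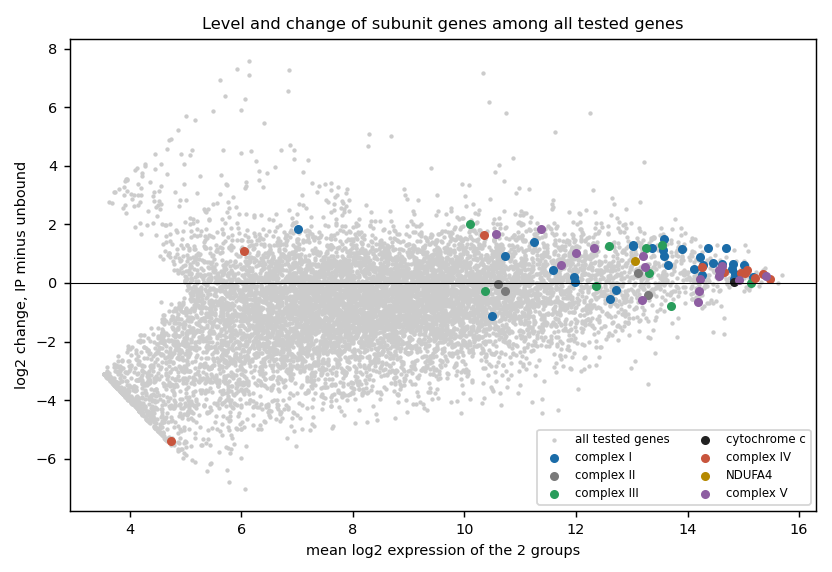
Log2 change (IP minus unbound, y axis, biotin scaling) against mean log2 expression of the 2 groups (x axis) for the 10582 tested genes (grey) and the 75 tested members (coloured by complex). The members crowd at the bright end, 58 of them at 12 or more, where the changes of all genes narrow; under the poly-A scaling the members' positive values turn negative.

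Different probe sets of a gene often gave different changes. Of the 169 member probe sets 140 were tested, and 42 genes had more than 1 tested set. Of 65 sets other than the brightest, 43 gave a higher signed change (more positive or less negative) than the brightest set of their gene. With the dimmest tested set standing for each gene, an alternative chosen after the data were seen, 29 members were higher and 7 lower, and 17 of the 20 called above stayed called. Signs differed between the sets of 7 genes, namely Atp5g1, Atp5pb, Cox5b, Cycs, Ndufa10, Ndufs4 and Sdhd. Of those, dim sets of Atp5g1 (-3.90), Cox5b (-3.68), Cycs (-2.41) and Ndufs4 (-1.16) were called lower in IP. Many subunit genes have processed pseudogenes and close relatives in the genome. Sets with the suffix x or s can read more than 1 transcript, so members read by such a set are uncertain. Among members called higher this holds for Ndufa7, Ndufa2, Ndufb11, Uqcrh, Uqcrq, Cox8a and Atp5e, and among those called lower for Cox7c. With every probe set tested by itself 42 of 140 were higher and 7 lower.

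**Figure D5:**
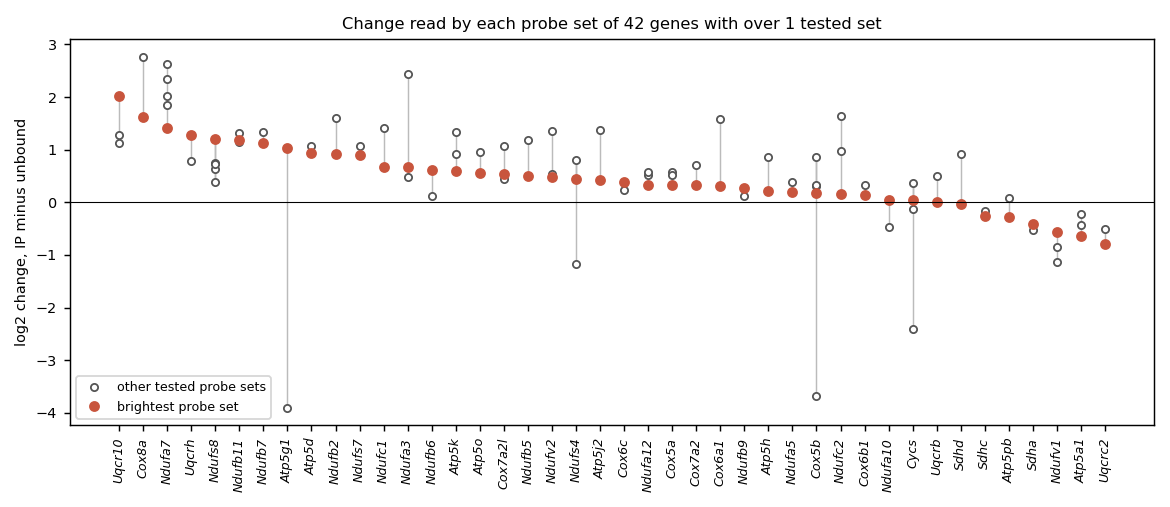
Log2 change (IP minus unbound, y axis, biotin scaling) by each tested probe set of the 42 subunit genes with more than 1, with the brightest set of a gene filled and its other sets open. The open points lie above the filled one in 43 of 65 cases, and dim sets of Atp5g1 and Cox5b lie near -3.90 and -3.68; the poly-A scaling would lower every point.

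Genes that build or steer the complexes were read from lists. Assembly factors are proteins that help put the complexes together without staying in them. Of 48 tested, 13 were higher (27.1%, against 10.4% of all tested genes) and 5 lower (10.4%, against 41.1%), with a median of 0.68. Coa4, a complex IV factor, was at least 1.49-fold higher, its unbound mean being under the detection limit, so that the filter fixed its direction and its bound stayed under 2-fold. Uqcc2, which stabilises newly made cytochrome b of complex III, had 13.58, 13.96 and 13.96 in IP and 11.69, 11.89 and 12.001 in unbound RNA (3.93-fold, limma, adjusted p = 3.85e-05). Sco1, a copper chaperone of complex IV, was at least 2.43-fold lower, under the limit on all IP arrays and again with its direction fixed by the filter. Atpaf1, a chaperone of the F1 head, had 8.60, 9.20 and 9.10 in IP and 11, 11.44 and 11.62 in unbound RNA (5.22-fold lower), but its dimmest tested probe set read -0.54, under 2-fold. Under quantile normalisation 26 of this list were higher and 2 lower. With the median of all probe sets 33 were higher and 2 lower, and with that of expressed ones 27 and 2. Under the poly-A scaling 0 were higher and 45 lower.

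Of 20 tested regulators of mitochondrial biogenesis 0 were higher and 9 lower. That share of 45% lies near the 41.1% of all tested genes, and the median of -0.77 near their -0.65, so the count is no result about the regulators. Ppargc1b was at least 8.82-fold lower, and Gabpb2, a partner of the ETS factor GABPA, at least 4.72-fold lower, both under the detection limit in IP, and the filter fixed their direction. With the median of all probe sets 3 regulators were higher and 4 lower. Nrf1, the gene of the factor whose motif was searched above, was under the limit on all arrays and was not tested. Genes of ATP export, proton leak and phosphate entry gave 1 higher and 3 lower of 12. These shares, 8.33% and 25%, do not exceed the 10.4% and 41.1% of all tested genes, so the counts are no result about the list. Atpif1, the inhibitor of reverse ATP hydrolysis by complex V, rose by 1.06 (not called with the mean of its probe sets, at 0.09, under quantile normalisation, at 0.70, or without unbound replicate 2, at 0.96), while Ak3 fell by 2.24. Slc25a27, an uncoupling protein relative, fell by 1.59 and was not called under quantile normalisation (-0.80) or either median (-0.56 and -0.85). With the median of all probe sets this list had 4 higher and 1 lower. Respirasome and cristae genes gave 2 higher (16.7%) and 1 lower (8.33%) of 12. Chchd6 and Micos13, both of the cristae junction complex, lay at 1.95 and 1.15 (Micos13 at 0.48 and not called with the mean of its probe sets). Apool lay at -1.27 (0.07 under quantile normalisation, and not called with either median, at -0.24 and -0.53, or without IP replicate 2, at -0.95).

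The citric acid cycle, which feeds the chain with electrons, gave 0 higher and 4 lower of 12 tested genes, with a median of -0.59 close to that of all genes. Its share of 33.3% lower does not exceed the 41.1% of all tested genes, so the count is no result about the cycle. Suclg2, a subunit of succinyl-CoA ligase, fell by 2.28 and Dld, the shared dihydrolipoamide dehydrogenase, by 1.40. Dld was not called under quantile normalisation (-0.92), either median (-0.37 and -0.66) or the mean of its probe sets (-0.79), and with the median of all probe sets the list had 2 higher and 1 lower. Of 76 tested mitochondrial ribosomal protein genes 33 (43.4%) were higher and 0 lower (median 0.90). Of 42 cytosolic ones 17 (40.5%) were higher and 0 lower (median 0.90). Over all tested genes 10.4% were higher and 41.1% lower. The poly-A scaling made 69 of 76 and 35 of 41 lower. Differences between these lists and the members were not tested.

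Mitochondrially encoded subunits were not among the members, and none of the 13 was found on the array under the symbols that were looked for. A probe set with the platform symbol ND5, a membrane arm subunit of complex I from mitochondrial DNA, was found after the values had been seen. It read 9.72, 9.72 and 9.11 in IP and 14.004, 13.73 and 13.78 in unbound RNA, 20-fold lower (log2 change -4.32, limma, adjusted p = 5.12e-06). The groups lay far apart, and the change was -3.29 and -3.58 with the 2 medians, -4.09 without scaling, -4.26 with quantile normalisation and -7.00 with the poly-A controls. As background, mitochondrial mRNAs are translated by ribosomes inside the organelle, and the mRNAs of all members by cytosolic ones. The part of this in the difference was not tested.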

How the data were processed

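RNA from 6 mouse samples, 3 IP and 3 unbound, each a pool of 5 mice, was hybridised to Affymetrix arrays. Per the labels' protocols, 20 ng of total RNA went through Affymetrix's repeated-cycle amplification. The authors deposited log2 values per probe set, which come from GCRMA, named in the submitters' processing notes, run on the replicates of one group at a time, per the series' design text. The log2 scale was read from the values. No source used here gives the GCRMA version. Probe sets were named from the platform's annotation: 34958 had 1 symbol, 932 several and 9211 were unnamed here or controls. Entrez IDs of 34754 matched RefSeq (GRCm38.p6), which changed 0 symbols.

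As that text recommends scaling between groups by the biotinylated controls, -0.23 was added to IP values, the mean difference over 18 biotin control probe sets. Each gene was read by its brightest probe set, tested where at least 3 of 6 arrays reached 5, and fitted in R 4.3.3 with limma 3.58.1 (lmFit, eBayes), with group as the only term. Tests were two-sided, and p-values were adjusted by Benjamini and Hochberg's method over 10582 genes. Calls needed an adjusted p under 0.05 and a change of at least 2-fold. For a lower bound on a fold, each dim array was counted at no less than 5. On simulated data with 10342 genes, 86% of 50 genes raised and 82% of 50 genes lowered by 1.5 (log2) were called, and 0.0197% of unchanged ones. Of genes raised or lowered by 0.5, 20% and 18% passed the adjusted p alone. The simulation left 10142 genes unchanged and held no error of scaling between the groups. In the data 22% of tested genes were higher and 56.9% lower by adjusted p. The simulated rates therefore do not cover the choice of scaling.

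The labels number the replicates and name the replicate an unbound fraction came from, so pairing was checked. Deviations from the group means of same-numbered IP and unbound samples correlated at 0.27, 0.16 and 0.10, the last only just at the bound of 0.1, while IP replicate 3 correlated at 0.21 with unbound replicate 2. The numbers were taken to pair the samples, and a fit with the replicate block was run beside the unblocked one.

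Every member could be named, in full for those called, the highest and lowest of a complex, isoform pairs and core complex I subunits, and up to 2 called genes with the largest change in each direction from other lists. The members and lists were chosen with earlier results of these data known. Alternatives were 5 other scalings and each array's own biotin controls, other filters and probe set rules, identical values left out, the block, a trend and robust fit, calls by adjusted p alone and leaving out each array.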

Additional observations from a re-analysis of the deposited data

How the results depend on the processing

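Across the alternatives the number of members called higher stayed at 15 to 29 except where named here, and the fit with the replicate number as a block gave 20 higher and 2 lower, changing no member's call. The trend and robust fit and each array's own biotin controls changed no member's call either. Without scaling, the number called lower became 1 in all tested members and 0 in complex I and the median of tested members became 0.68. With arrays centred on the median of all probe sets, the number called higher became 62 in all tested members, 29 in complex I, 1 in complex II, 10 in complex IV and 14 in complex V, the number called lower became 1 in all tested members and 0 in complex I and the median of tested members became 1.47. With the median of expressed probe sets, the number called higher became 50 in all tested members, 25 in complex I, 1 in complex II, 8 in complex IV and 10 in complex V, the number called lower became 1 in all tested members and 0 in complex I and the median of tested members became 1.18. With quantile normalisation, the number called higher became 6 in complex I, the number called lower became 0 in complex I, 1 in complex III and 1 in complex V, the median of tested members became 0.20 and the distance of that median from all genes became 0.16. With the poly-A controls, the number called higher became 0 in all tested members, 0 in complex I, 0 in complex III, 0 in complex IV and 0 in complex V, the number called lower became 72 in all tested members, 31 in complex I, 4 in complex II, 8 in complex III, 11 in complex IV and 16 in complex V and the median of tested members became -2.23. Without a filter, the distance of that median from all genes became 0.64. With the filter at log2 7, the number called higher became 1 in complex IV and the distance of that median from all genes became 0.98. With the mean of a gene's probe sets, the number called lower became 4 in all tested members and 2 in complex V and the distance of that median from all genes became 0.99. With every probe set tested by itself, the number called higher became 42 in all tested members, 24 in complex I, 5 in complex IV and 7 in complex V, the number called lower became 7 in all tested members, 3 in complex I, 2 in complex IV and 1 in complex V, the median of tested members became 0.55 and the distance of that median from all genes became 1.26. With genes of identical values left out, the number called lower became 1 in all tested members and 0 in complex IV and the distance of that median from all genes became 0.94. With calls by adjusted p alone, the number called higher became 49 in all tested members, 22 in complex I, 1 in complex II, 8 in complex IV and 12 in complex V and the number called lower became 7 in all tested members, 2 in complex I, 2 in complex II, 1 in complex III and 1 in complex V. With the dimmest tested probe set, chosen after seeing the data, the number called higher became 16 in complex I and 4 in complex IV, the number called lower became 7 in all tested members, 3 in complex I, 2 in complex IV and 1 in complex V, the median of tested members became 0.66 and the distance of that median from all genes became 1.40. Without Cox7c, also chosen after seeing the data, the number called lower became 1 in all tested members and 0 in complex IV.

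Leaving out 1 array at a time gave 1 to 2 for the members called lower, 0.87 to 1.14 for the median log2 change of members above that of all genes, 0 to 1 for complex I called lower, 1 to 2 for complex IV called higher and 0 to 1 for complex IV called lower. Without an unbound array fewer genes pass the filter of 3 arrays, Cox7c among those lost. Ndufs1 was not called without IP replicate 2 (-0.99) and Cox7a1 was not called without IP replicate 3 (1.00). Small values changed sign, Sdhd between -0.28 and 0.10, Cycs between -0.01 and 0.12, Uqcrb between -0.01 and 0.04 and Uqcrfs1 between -0.27 and 0.09.

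Signs of single values, by the log2 change, turned as follows. Without scaling they became complex II median 0.09, Ndufa9 0.00, Sdhd 0.20 and Uqcrfs1 0.14. With the median of all probe sets they became the median of all genes 0.42, complex II median 0.88, Atp5a1 0.39, Atp5b 0.46, Atp5pb 0.75, Ndufa9 0.80, Ndufv1 0.47, Sdha 0.61, Sdhc 0.77, Sdhd 0.99, Uqcrc1 0.75, Uqcrc2 0.23 and Uqcrfs1 0.94. With the median of expressed ones they became the median of all genes 0.12, complex II median 0.59, Atp5a1 0.11, Atp5b 0.17, Atp5pb 0.47, Ndufa9 0.51, Ndufv1 0.18, Sdha 0.32, Sdhc 0.48, Sdhd 0.71, Uqcrc1 0.47 and Uqcrfs1 0.65. With quantile normalisation they became the median of all genes 0.04, complex II median 0.08, Apool 0.07, Atp5c1 -0.14, Atp5g3 -0.26, Atp5h -0.03, Atp5j -0.21, Cox5b -0.11, Cox6b1 -0.08, Cox6c -0.01, Cox7a2 -0.02, Cycs -0.32, Ndufa1 -0.05, Ndufa12 -0.05, Ndufa5 -0.11, Ndufb9 -0.06, Ndufc2 -0.23, Sdhc 0.02, Sdhd 0.27, Uqcrb -0.30 and Uqcrc1 0.07. With the mean of probe sets they became complex II median 0.06, Atp5c1 -1.55, Atp5g1 -1.43, Atp5g2 -0.62, Cox5b -0.36, Cycs -0.53, Ndufa10 -0.21, Ndufab1 -1.65, Ndufs4 -0.16 and Sdhd 0.44. With the dimmest set they became complex II median 0.09, Atp5g1 -3.90, Atp5pb 0.09, Cox5b -3.68, Cycs -2.41, Ndufa10 -0.46, Ndufab1 -3.42, Ndufs4 -1.16 and Sdhd 0.92. With the poly-A controls they became complex I median -2.03, complex III median -2.35, complex IV median -2.34, complex V median -2.25, Atp5c1 -2.43, Atp5d -1.74, Atp5e -1.49, Atp5g1 -1.64, Atp5g2 -1, Atp5g3 -2.58, Atp5h -2.45, Atp5j -2.54, Atp5j2 -2.25, Atp5k -2.08, Atp5l -0.83, Atp5md -2.25, Atp5mpl -2.06, Atp5o -2.12, Atpif1 -1.62, Chchd6 -0.72, Cox4i1 -2.25, Cox5a -2.34, Cox5b -2.50, Cox6a1 -2.36, Cox6b1 -2.53, Cox6c -2.29, Cox7a1 -1.57, Cox7a2 -2.34, Cox7a2l -2.14, Cox8a -1.05, Cyc1 -2.35, Cycs -2.64, Micos13 -1.52, Ndufa1 -2.37, Ndufa10 -2.63, Ndufa12 -2.34, Ndufa13 -2.02, Ndufa2 -1.48, Ndufa3 -2.01, Ndufa4 -1.94, Ndufa5 -2.49, Ndufa6 -1.39, Ndufa7 -1.27, Ndufa8 -1.40, Ndufab1 -1.53, Ndufb1 -0.84, Ndufb10 -1.17, Ndufb11 -1.49, Ndufb2 -1.76, Ndufb3 -2.05, Ndufb5 -2.18, Ndufb6 -2.06, Ndufb7 -1.55, Ndufb8 -2.06, Ndufb9 -2.40, Ndufc1 -2.01, Ndufc2 -2.53, Ndufs3 -2.49, Ndufs4 -2.23, Ndufs5 -1.74, Ndufs7 -1.78, Ndufs8 -1.47, Ndufv2 -2.20, Ndufv3 -1.5, Sdhb -2.35, Uqcc2 -0.70, Uqcr10 -0.65, Uqcr11 -1.49, Uqcrb -2.66, Uqcrh -1.39 and Uqcrq -1.43. The cause of these changes was not tested, beyond the shift that a scaling adds to every IP value. Quantile normalisation ended the higher calls of Ndufa2, Ndufb11, Ndufb7, Ndufs8, Ndufv3 and Uqcr11, at 0.80 to 0.96, and gained that of Ndufs5 (1.24). The 3 arrays a group limit the precision, and a difference under 2-fold is not called by construction.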

Other observations

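Carriers and channels that link ATP synthase to the rest of the cell are given here as values under the biotin scaling, which called none of them. The adenine nucleotide carriers exchange ATP for ADP, and Slc25a4 had log2 values of 14.78, 14.67 and 14.61 in IP and 14.94, 14.49 and 14.78 in unbound RNA, groups that overlapped (-0.05). Slc25a5 had 13.11, 13.09 and 13.09 in IP and 13.97, 13.99 and 14.22 in unbound RNA, lower in every IP sample at -0.96 but under 2-fold (limma adjusted p = 1.38e-04). The phosphate carrier Slc25a3 lay at -0.42 and the outer membrane channels Vdac1, Vdac2 and Vdac3 at -0.37, -0.02 and 0.05. Slc25a14, an uncoupling protein relative, lay at 0.97, with all IP samples above all unbound ones. These genes were chosen after their values were seen. Other scalings moved the calls of their list of 12 tested genes. Without scaling 2 of the list were higher and 2 lower, and with the median of all probe sets 4 and 1. The poly-A scaling made all 12 lower.

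Among regulators, Ppargc1a, a coactivator of mitochondrial genes, had 9.47, 10.03 and 9.83 in IP and 11.97, 11.53 and 11.89 in unbound RNA, 4.06-fold lower (limma adjusted p = 1.11e-04). Esrra, an orphan receptor it works with, read 7.18 on all 3 IP arrays and 8.83, 9.23 and 9.32 in unbound RNA, 3.85-fold lower. Gabpa, an ETS family transcription factor, was 8.39-fold lower. Tfam, which packages and transcribes mitochondrial DNA, overlapped between groups at -0.27, and Yy1 lay at -0.69 without a call. These genes too were chosen after their values were seen. Their list had 45% lower, near the 41.1% of all tested genes, so their falls are no result about regulators. Under the biotin scaling 9 of the list were lower. With the median of all probe sets 4 were, and with that of expressed ones or quantile normalisation 6. The values of these 5 genes under those scalings are not given here.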
